A study of Homo sapiens with 9 samples.

Results

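SC07 is a subclone of the established human melanoma line SK-MEL-5, which carries a mutated BRAF gene. Its 3 RNA sequencing libraries were compared with the 6 libraries of the sister subclones SC01 and SC10 (3 of 9 libraries against the other 6). All 3 clones were grown out of the parental line by limiting dilution with no drug present, and all 9 libraries come from cells that received no treatment. Per the labels, the clones were taken for sequencing because of how they first responded to the BRAF inhibitor PLX-4720, but the labels do not tie a response to a clone. Each clone descends from a single cell, so that the clone cannot be told apart from a batch of its culture or extraction. P-values measure only the spread between libraries, which may be technical because the labels do not name separate cultures. The comparison asked which genes set SC07 apart from both sisters. A gene was taken as highest or lowest in SC07 alone when it passed an adjusted p of 0.05 (edgeR's quasi-likelihood test with Benjamini-Hochberg adjustment over all genes tested) in 3 contrasts in the same direction, namely SC07 minus the mean of SC01 and SC10, SC07 minus SC01 and SC07 minus SC10, and when no SC07 library overlapped any of the other 6. Of 18009 genes tested, 1841 were highest and 1826 were lowest in SC07 alone.

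Melanoma cells of a single tumour or line can stand at different points between a pigmented, melanocyte-like state and states with less pigment, more matrix and more adhesion genes. The pigmented state is governed by the transcription factor MITF, which binds short E-box sequences in promoters of melanin and melanosome genes and also acts on the coactivator PPARGC1A, a driver of mitochondrial genes. Subclones of a line can in addition differ in the copies of whole chromosome arms, which shift many neighbouring genes by small amounts at once.

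Library totals ran from 30224066 to 39454087 deposited counts, and levels are given as CPM, the count scaled to a common library size after TMM normalization. The first 2 principal components held 63.9% and 21.9% of the variance, the first with SC01 apart from SC07 and SC10 and the second with SC07 apart from SC10. SC10 replicate 3 stood apart from the other SC10 libraries on the third (-27.41, against 12.73 and 15.38). The melanocyte genes PMEL, DCT, TYR, MLANA and MITF each stood above 400 CPM on average in every clone, while SOX10, another melanocyte factor, was listed with 0 counts in each library and was not tested. The reads behind this 0 were not examined, so that it does not show that the cells lack SOX10. Mitochondrial mRNAs took between 8.52% and 8.965% of the counts of SC07 libraries, 6.35% to 6.46% in SC01 and 9.42% to 9.885% in SC10, so SC07 lay between its sisters.

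Fewer genes set SC07 apart than set either sister apart. Against the mean of both sisters, 9452 genes (52.5%) passed the test, 4973 higher (27.6%) and 4479 lower (24.9%) in SC07. Only 3885 of these (41.1%) also passed against each sister in the same direction, and in 3667 (38.8%) the SC07 libraries also did not overlap with the other 6. For 3242 (34.3%) the change passed against SC01 alone, for 1382 (14.6%) against SC10 alone, and for 904 (9.6%) SC07 lay between its sisters and differed from each in opposite directions. Changes are therefore given against each sister, and both of these comparisons use the same SC07 libraries. SC07 and SC01 differed in 11162 genes (62%), of which 5675 (31.5%) were higher and 5487 (30.5%) lower in SC07. When libraries were scaled by their totals alone, this split was 4666 higher and 6841 lower, with the median of all genes at -0.117. SC07 and SC10 differed in 8620 genes (47.9%), 4145 higher (23%) and 4475 lower (24.8%). By the same rule, 8029 genes (44.6%) were highest or lowest in SC01 alone and 4673 (25.9%) in SC10 alone, against 3667 (20.4%) in SC07 alone.

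The genes that set SC07 apart were mostly changed by little, and the large changes were mostly losses. Against the nearer sister, the median change of the 1841 highest genes (10.2% of those tested) was 1.23-fold, and 1421 of them lay under 1.5-fold. The median of the 1826 lowest genes (10.1%) was 1.36-fold, with 1113 under 1.5-fold. A change of at least 2-fold against the nearer sister was reached by 205 highest genes (1.14%) and 396 lowest genes (2.2%), and a change of at least 8-fold by 24 and 48. For SC10 the balance was the other way, with 492 genes highest (2.73%) and 207 lowest (1.15%) by at least 2-fold. SC10 was the nearer sister for 1254 highest and 1166 lowest genes of SC07. In 693 of the highest and 705 of the lowest genes the sisters did not differ from each other past the threshold. No gene was silent in SC07 (at most 3 counts) while at 5 CPM or more in each of the other 6 libraries and none had the opposite pattern. The libraries come from bulk cells, so that fewer cells with a transcript and less of it per cell cannot be told apart. Scaling by library totals gave 1524 highest and 2103 lowest genes.

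**Figure D1:**
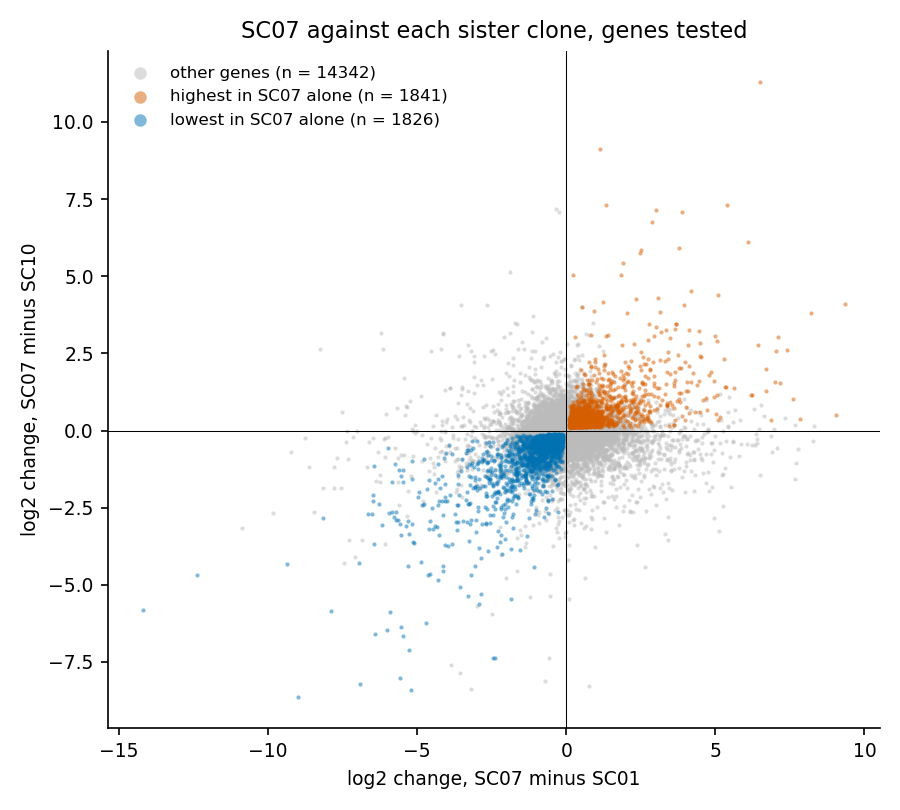
Each point is a tested gene, with its log2 change between SC07 and SC01 on the x axis and between SC07 and SC10 on the y axis. The 1841 genes highest in SC07 alone (orange) fill the upper right and the 1826 lowest (blue) the lower left, with the far ends of the lower left more crowded, and most genes of both colours lie close to the centre.

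Among the genes with the largest gain over both sisters were receptors and secreted ligands. RXFP1, the receptor of the hormone relaxin, measured 9.77, 8.69 and 9.14 CPM in SC07, 0.110, 0.0632 and 0.120 in SC01 and 0, 0 and 0 in SC10. No read of it was counted in SC10, while all SC07 libraries lay near 9 CPM, so that it was at least 319-fold higher than in SC10 (taking 3 counts over the SC10 libraries as the floor), and its log2 change against SC01 was 6.49 ± 0.24 (edgeR's adjusted p = 5.79e-18). GLRB, the beta subunit of the glycine receptor, measured 6.64, 6.08 and 6.90 CPM in SC07, 0.137, 0.158 and 0.269 in SC01 and 0.300, 0.326 and 0.295 in SC10. Both sisters stayed below 0.4 CPM, and the log2 change of GLRB was 5.10 ± 0.23 against SC01 and 4.40 ± 0.21 against SC10. PDGFC, a ligand of the platelet-derived growth factor receptors, measured 11.6, 11.7 and 11.9 CPM in SC07, 0.632, 0.474 and 0.479 in SC01 and 1.14, 1.39 and 1.18 in SC10, with log2 changes of 4.45 ± 0.16 against SC01 and 3.24 ± 0.14 against SC10. CX3CL1, a membrane-bound chemokine, stood at 5.09 ± 0.31 CPM in SC07, 0.506 ± 0.12 in SC01 and 0.533 ± 0.21 in SC10. Values with ± are means and SD over the 3 libraries of a clone, and log2 changes carry a standard error. It was worked out from the change and the F value of its test. For large changes it can fall below the counting error of the lower clone, and is then too small. Examples are PDGFC against SC01 (54 counts in SC01) and the chemokine gene CXCL1 against SC01 (116 counts in SC07). SLIT2, a secreted guidance ligand, stood at 5.18 ± 0.42 CPM in SC07, 0.460 ± 0.11 in SC01 and 0.629 ± 0.42 in SC10. In each of these genes the lowest SC07 library lay above the highest of the other 6, as the rule for a call requires. Both sisters stayed below 2 CPM. In SC01, RXFP1 and GLRB rest on 10 and 19 counts over the clone, so that their standard errors are too small.

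The other leading genes hold an enzyme, a binding protein and signalling factors. RLBP1, which binds retinaldehyde in the eye, was the most abundant of them per length, and measured 168, 165 and 165 CPM in SC07, 8.73, 11.5 and 11.8 in SC01 and 9.95, 9.79 and 9.92 in SC10. The SC07 libraries lay within 3 CPM of each other and the 6 sister libraries between 8.73 and 11.8 CPM, and its log2 change was 3.96 ± 0.071 against SC01 and 4.07 ± 0.072 against SC10 (adjusted p at most 1.14e-23). PTPRR, a receptor-type phosphatase that acts on MAP kinases, stood at 7.64 ± 0.80 CPM in SC07, 0.417 ± 0.12 in SC01 and 0.327 ± 0.15 in SC10. EYA1, a transcriptional coactivator of organ development, stood at 9.39 ± 0.33 CPM in SC07, 1.16 ± 0.079 in SC01 and 0.914 ± 0.30 in SC10. SERPINF1, a secreted serpin known for acting on blood vessels, differed between the sisters as well and stood at 61.6 ± 1.6 CPM in SC07, 2.73 ± 0.49 in SC01 and 11.5 ± 0.85 in SC10. FUT3, a fucosyltransferase of Lewis antigens with only 6 counts in SC01, stood at 10.7 ± 0.87 CPM in SC07, 0.0602 ± 0.031 in SC01 and 1.74 ± 0.17 in SC10. RAB3B, a small GTPase of regulated secretion, stood at 10.2 ± 0.77 CPM in SC07, 0.757 ± 0.088 in SC01 and 1.86 ± 0.35 in SC10. For SERPINF1, FUT3 and RAB3B, SC10 lay between SC01 and SC07, and the log2 change against SC10 was 2.42 ± 0.074, 2.62 ± 0.14 and 2.46 ± 0.14.

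PDGFC and GLRB are next to each other among the tested genes of chromosome 4 (GRCh38, chr4:156760454-156971394 and chr4:157076057-157172090), and RXFP1 lies further downstream (chr4:158315311-158653372). TMEM144, a transmembrane protein between GLRB and RXFP1, stood at 25.4 ± 1.4 CPM in SC07, 11.04 ± 0.70 in SC01 and 21.3 ± 0.92 in SC10. FAM198B, FAM198B-AS1 and AC098679.2 also lie between GLRB and RXFP1, but were not called and averaged lower in SC07 than in SC10. FAM198B stood at 57.1 ± 2.1 CPM in SC07, 48.8 ± 0.59 in SC01 and 66.3 ± 1.3 in SC10. Of 204 genes highest by at least 2-fold on the numbered chromosomes or X, 45 had such a neighbour within 3 tested genes and 2 Mb and fell into 20 groups, among them SERPINF2 and SERPINF1 on chromosome 17, and PTPRB and PTPRR, a pair of receptor-type phosphatases, on chromosome 12. The largest group held 5 members of the GAGE family of cancer-testis antigens on chromosome X. GAGE1 measured 46.9, 47.9 and 55.1 CPM in SC07, 1.48, 1.42 and 1.56 in SC01 and 5.99, 7.12 and 7.18 in SC10. GAGE2A stood at 13.5 ± 0.25 CPM in SC07, 0.176 ± 0.044 in SC01 and 6.12 ± 0.51 in SC10. GAGE13 stood at 14.1 ± 1.0 CPM in SC07, 1.70 ± 0.064 in SC01 and 5.402 ± 0.70 in SC10. All 3 were highest in SC07 and lowest in SC01. GAGE12J was uneven among the SC07 libraries, at 1.92, 8.58 and 4.18 CPM, and missed the call with limma-voom. The GAGE genes are near-identical copies, and how reads that match several of them were counted is not stated, so the level of each copy is uncertain.

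Several of the leading losses in SC07 were genes of the cell surface. NRCAM, a neuronal cell adhesion molecule, measured 1.31, 1.19 and 0.896 CPM in SC07, 279, 259 and 266 in SC01 and 67.3, 69.0 and 61.8 in SC10. Its SC07 libraries stayed near 1 CPM while the sisters were themselves far apart, and the log2 change was -7.88 ± 0.085 against SC01 and -5.86 ± 0.089 against SC10 (adjusted p at most 1.53e-26). MME, the peptidase neprilysin, measured 1.34, 0.619 and 0.985 CPM in SC07, 28.6, 28.5 and 27.4 in SC01 and 18.6, 18.6 and 19.0 in SC10, with a log2 change of -4.87 ± 0.12 against SC01 and -4.28 ± 0.13 against SC10. NT5E, the enzyme CD73 that forms adenosine outside the cell, measured 2.25, 1.88 and 2.24 CPM in SC07, 192, 179 and 181 in SC01 and 27.6, 27.1 and 25.7 in SC10, with a log2 change of -6.44 ± 0.074 against SC01 and -3.66 ± 0.082 against SC10. NT5E was thus high in SC01, intermediate in SC10 and low in SC07, while MME was high in both sisters, and higher in SC01. TMEM178B, a transmembrane protein, stood at 0.577 ± 0.18 CPM in SC07, 9.99 ± 0.27 in SC01 and 12.02 ± 1.2 in SC10. SLC43A3, a transporter of purine bases, stood at 2.38 ± 0.17 CPM in SC07, 84.7 ± 1.8 in SC01 and 28.98 ± 0.43 in SC10, though another gene shares 29.9% of its exon sequence. GABRA5, a subunit of the GABA receptor, stood at 0.685 ± 0.18 CPM in SC07, 8.57 ± 0.61 in SC01 and 6.39 ± 0.61 in SC10.

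The other leading losses include a transcription factor and a protease inhibitor. BARX2, a homeobox factor of muscle and epithelial development, measured 0.0304, 0.0258 and 0.0597 CPM in SC07, 5.19, 5.18 and 4.73 in SC01 and 12.4, 12.4 and 12.4 in SC10. Only 4 reads of it were counted in SC07, so that its standard errors are too small, and the fitted log2 change was -6.92 ± 0.26 against SC01 and -8.22 ± 0.23 against SC10. A2M, the broad protease inhibitor alpha-2-macroglobulin, measured 6.12, 5.05 and 6.06 CPM in SC07, 72.7, 87.4 and 84.5 in SC01 and 75.9, 70.9 and 70.6 in SC10, and its log2 change was -3.83 ± 0.080 against SC01 and -3.66 ± 0.081 against SC10. The sisters lay close together for A2M, and their 6 libraries lay between 70.6 and 87.4 CPM. BAIAP2L2, a protein that shapes membrane protrusions, stood at 0.433 ± 0.079 CPM in SC07, 10.9 ± 1.0 in SC01 and 11.3 ± 1.1 in SC10. RNF150, a RING finger protein, was highest in SC10 and stood at 3.93 ± 0.56 CPM in SC07, 32.3 ± 1.9 in SC01 and 82.5 ± 11 in SC10. FRMD4A, a scaffold of cell polarity with 17.6% of its exon sequence shared with another gene, stood at 2.41 ± 0.53 CPM in SC07, 22.2 ± 0.99 in SC01 and 17.9 ± 0.94 in SC10. ENC1, an actin-binding protein of neural tissue, stood at 0.818 ± 0.17 CPM in SC07, 14.6 ± 0.41 in SC01 and 5.54 ± 1.2 in SC10. In all of these genes the SC07 libraries lay below the lowest of the other 6, as the rule for a call requires.

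**Figure D2:**
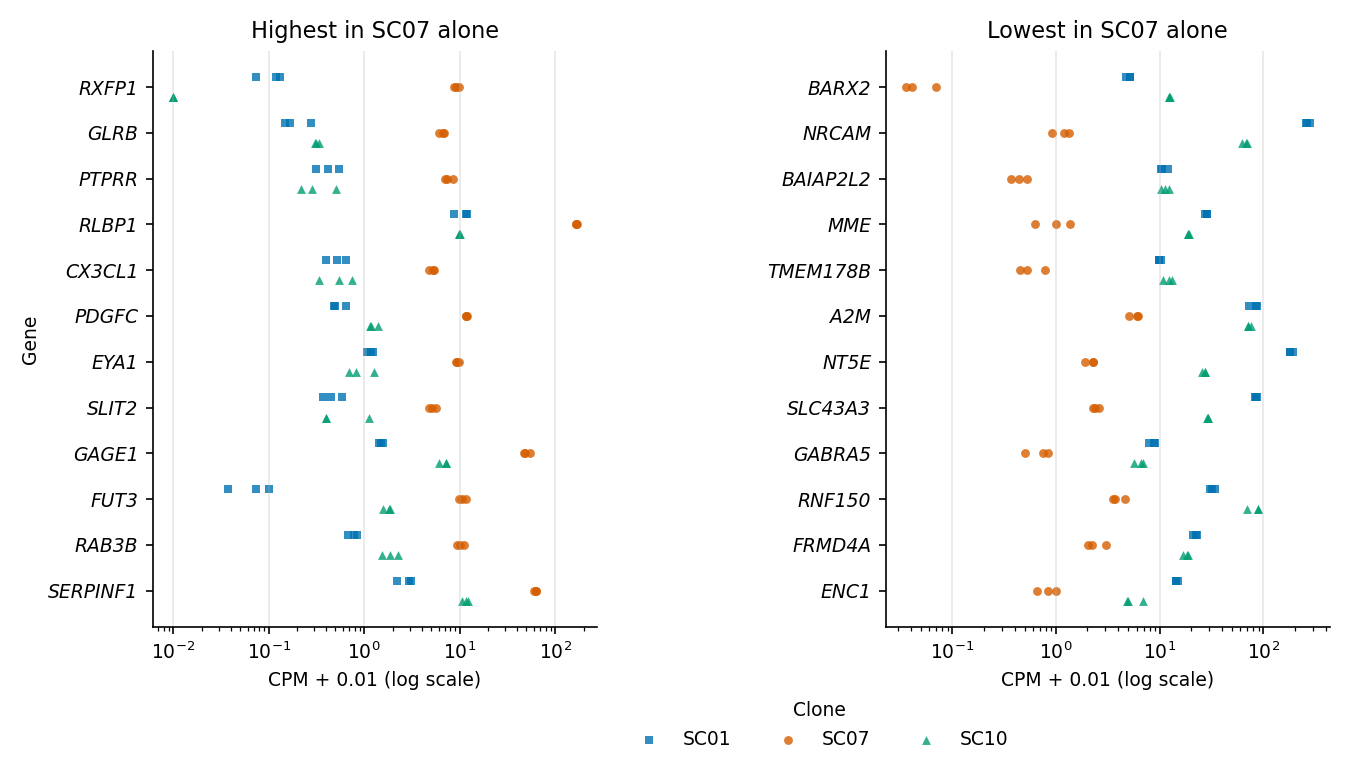
Points are single libraries, with the 12 leading genes of each direction on the y axis and CPM plus 0.01 on a log x axis. For every gene the 3 SC07 points (circles) lie apart from the 6 points of SC01 (squares) and SC10 (triangles), as the rule for a call requires. The SC10 triangles of RXFP1 at 0.01 stand for 0 counts.

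Among long non-coding RNAs the losses were larger as well. MIR3681HG, a microRNA host transcript, stood at 0.839 ± 0.21 CPM in SC07, 7.87 ± 0.53 in SC01 and 6.86 ± 0.29 in SC10. BANCR, a transcript first described as induced by mutant BRAF, stood at 0.849 ± 0.13 CPM in SC07, 9.50 ± 1.1 in SC01 and 6.57 ± 1.0 in SC10, with a log2 change of -3.47 ± 0.16 against SC01 and -2.94 ± 0.17 against SC10. OVAAL stood at 1.82 ± 0.28 CPM in SC07, 14.2 ± 1.0 in SC01 and 10.1 ± 0.69 in SC10. The 3 leading gains were smaller, with BLACAT1 at 15.4 ± 1.1 CPM in SC07, 8.08 ± 0.36 in SC01 and 4.47 ± 0.098 in SC10, and DLGAP1-AS2 and TNFRSF14-AS1 at log2 changes against the nearer sister of 0.76 and 0.70. The last 2 are antisense transcripts. No source used here states whether reads were counted by strand, and reads from the opposite gene may be among their counts.

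Many genes of melanin synthesis and the melanosome were highest in SC07. Of the 30 members of this list, 14 were highest in SC07 alone (46.7%, against 10.2% of all genes tested) and 3 were lowest. The 14 include CDK2, a kinase of the cell cycle, and QPCT, a glutaminyl cyclase, so that 12 of the other 28 were highest. The list had a median log2 change against the mean of the sisters of 0.24, where the median of all genes tested was 0.01. Against SC01 it was 0.455, and against SC10 0.154. Listed genes were called more often than all genes tested. Over all 47 lists of this report, 196 of 1219 tested genes were highest and 190 lowest in SC07 alone. PMEL, the protein that forms the fibrils of the melanosome, measured 12167, 11808 and 12450.0 CPM in SC07, 3439, 3852 and 3968 in SC01 and 6868, 6671 and 6940.5 in SC10. All SC07 libraries lay above those of SC10, and these above SC01, and the log2 change was 1.69 ± 0.047 against SC01 and 0.83 ± 0.046 against SC10. DCT, the dopachrome tautomerase of melanin synthesis, measured 8976, 9266 and 8242 CPM in SC07, 3505, 3507 and 3426 in SC01 and 4921, 4947 and 4591 in SC10, with a log2 change of 1.34 ± 0.045 against SC01 and 0.87 ± 0.045 against SC10. TRPM1, a cation channel of melanocytes, measured 59.4, 61.6 and 55.8 CPM in SC07, 27.1, 29.5 and 28.3 in SC01 and 29.7, 29.8 and 29.03 in SC10. The 6 sister libraries of TRPM1 lay within 3 CPM of each other, and SC07 was higher by 1.06 ± 0.056 against SC01 and 0.999 ± 0.055 against SC10 on the log2 scale. SLC7A11, the cystine transporter that feeds pheomelanin and glutathione, measured 54.3, 55.6 and 54.8 CPM in SC07, 3.90, 3.79 and 3.77 in SC01 and 24.8, 24.8 and 20.6 in SC10. It was higher in SC07 than in SC01 by 3.84 ± 0.082 and than in SC10 by 1.23 ± 0.065. The gain in TYR, the tyrosinase of melanin synthesis, was 0.996 ± 0.042 against SC01 and 0.13 ± 0.041 against SC10, small against SC10.

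Other pigment genes did not follow. SLC24A5, a potassium-dependent sodium-calcium exchanger of the melanosome, was lowest in SC07 at 12.2, 11.6 and 11.5 CPM in SC07, 46.9, 50.9 and 48.4 in SC01 and 26.6, 30.7 and 27.8 in SC10, although 32.9% of its exon sequence is shared with another gene. MLANA and TYRP1 lay between the sisters in SC07, at 1072 CPM for MLANA (SC01 604, SC10 1514) and 1212 CPM for TYRP1 (SC01 2394, SC10 702). MITF itself was between the sisters as well, with a log2 change against their mean near 0, at 0.01 (edgeR's adjusted p = 0.916). PAX3, an upstream regulator of MITF, also lay between them. Of 22 tested genes of the melanocyte lineage list, which are 19 transcription factors and the receptors KIT, EDNRB and MC1R, 2 were highest (9.09%) and 5 lowest (22.7%) in SC07 alone, all 7 of them transcription factors. Among all genes tested, 10.2% were highest and 10.1% lowest. TBX3, a T-box factor, was highest at 18.1 ± 1.6 CPM in SC07, 8.36 ± 0.18 in SC01 and 7.74 ± 0.79 in SC10. The zinc finger factors SNAI2 and ZEB2 and the T-box factor TBX2 were lowest, at 32.4, 86.4 and 87.7 CPM in SC07 against 49.5, 115 and 111 in SC10.

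Promoters of pigment genes that were highest in SC07 are shown because they carry the E-box CATGTG, which MITF is known to bind and which reads CACATG on the other strand. The sequences are the 250 bases before RefSeq starts (GRCh38.p14), 5′ to 3′ on the gene's strand, with each E-box in capitals. TRPM1 has 2 such starts, chr15:31161161-31161410 and chr15:31101726-31101975, both on the minus strand, with the E-box beginning 8 and 56 bases before the start. The DCT start shown is at chr13:94479683-94479932, minus strand, with E-boxes 215 and 134 bases before it. Another DCT start, chr13:94549407-94549656 on the minus strand, has no such E-box and is not shown.
TRPM1 outer start: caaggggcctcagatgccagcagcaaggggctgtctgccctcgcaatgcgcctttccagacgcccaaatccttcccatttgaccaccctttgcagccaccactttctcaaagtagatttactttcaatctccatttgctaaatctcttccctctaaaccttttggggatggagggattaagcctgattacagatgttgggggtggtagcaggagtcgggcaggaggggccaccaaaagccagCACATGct
TRPM1 inner start: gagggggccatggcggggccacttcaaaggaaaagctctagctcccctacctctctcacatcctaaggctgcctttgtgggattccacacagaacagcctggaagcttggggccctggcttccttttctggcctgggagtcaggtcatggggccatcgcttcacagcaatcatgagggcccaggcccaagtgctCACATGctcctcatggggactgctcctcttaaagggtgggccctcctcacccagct
DCT: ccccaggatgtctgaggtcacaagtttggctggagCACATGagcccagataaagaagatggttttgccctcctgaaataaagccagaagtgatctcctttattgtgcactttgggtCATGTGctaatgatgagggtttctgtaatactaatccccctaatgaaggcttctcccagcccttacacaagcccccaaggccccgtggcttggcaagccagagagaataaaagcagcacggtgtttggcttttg
Of the 14 members of the pigment list highest in SC07, 10 were in the promoter table, and 5 of those (DCT, HPS4, OCA2, TRPM1 and TYR) had the E-box in at least 1 of their promoters, or 6 of 23 promoters. Among all 35116 promoters of this length the share was 9.42%. These are pigment genes, a class that MITF is known to bind, so the difference cannot be tied to SC07. Pigment genes that were not highest in SC07 were not compared. A match describes the letters and shows no binding.

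Many genes of the extracellular matrix and of its receptors were lowest in SC07. Of 42 tested collagens, laminins and matrix glycoproteins, 17 were lowest in SC07 alone (40.5%, against 10.1% of all genes tested) and 6 were highest. The median log2 change was -0.71 against the mean of the sisters, but -1.22 against SC01 and -0.224 against SC10. Summed levels ran from 3297 to 3368 CPM in SC07, 6327 to 6550 in SC01 and 3096 to 3327 in SC10, so the sum in SC07 was not below that in SC10. PXDN, a peroxidase that crosslinks basement membrane collagen, had 0 counts in all 3 SC07 libraries, and measured 67.2, 64.5 and 69.8 CPM in SC01 and 0.218, 0.237 and 0.148 in SC10. With 3 counts over the clone as the floor, it was at least 2356-fold lower than in SC01 and at least 7.06-fold lower than in SC10. TNC, the matrix protein tenascin C, measured 0.183, 0.129 and 0.0597 CPM in SC07, 706, 694 and 656 in SC01 and 3.68, 3.23 and 2.81 in SC10, so that SC07 was below SC10, itself far below SC01. COL4A1 and COL4A2, the paired chains of basement membrane collagen, moved together. COL4A1 measured 0.7003, 0.387 and 0.418 CPM in SC07, 18.4, 20.005 and 20.7 in SC01 and 3.57, 3.83 and 4.05 in SC10. COL4A2 measured 0.7003, 0.644 and 0.627 CPM in SC07, 32.8, 36.5 and 35.1 in SC01 and 4.96, 5.04 and 4.67 in SC10. Their log2 changes against SC10 were -2.93 ± 0.18 and -2.89 ± 0.14. In neither chain did the clones overlap, and the order was SC01, SC10, SC07 in both.

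COL4A1 and COL4A2 lie head to head on chromosome 13, and the stretch between their RefSeq starts is shown because both genes are read outward from it. It covers chr13:110307158-110307283 (GRCh38.p14), is given on the plus strand, on which COL4A2 is read, and has its CG pairs in capitals.
COL4A1 and COL4A2 shared stretch: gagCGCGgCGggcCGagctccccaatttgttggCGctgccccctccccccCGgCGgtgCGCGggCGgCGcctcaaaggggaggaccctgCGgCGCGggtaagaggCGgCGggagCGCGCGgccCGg
The stretch has 126 bases, 20 CG pairs and a G and C content of 80.2%.

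VCAN, a large proteoglycan, and COL5A1, a chain of fibrillar collagen, were high in both sisters, most of all in SC10, and lowest in SC07. VCAN measured 71.3, 71.8 and 71.9 CPM in SC07, 273, 248.5 and 236 in SC01 and 379.8, 383 and 276 in SC10. COL5A1 measured 1.248, 1.52 and 1.73 CPM in SC07, 10.3, 9.32 and 9.61 in SC01 and 13.4, 13.3 and 10.1 in SC10. SC10 replicate 3 was the lowest SC10 library for both. FBLN1, the matrix protein fibulin, stood at 9.59 ± 0.21 CPM in SC07, 30.5 ± 0.89 in SC01 and 28.9 ± 1.1 in SC10. TGFBI, an adhesive matrix protein induced by transforming growth factor beta, stood at 1.02 ± 0.31 CPM in SC07, 90.1 ± 1.4 in SC01 and 4.91 ± 1.1 in SC10. FBN1, the fibrillin of microfibrils, stood at 0.885 ± 0.037 CPM in SC07, 13.3 ± 0.80 in SC01 and 3.78 ± 0.51 in SC10. The members that were highest in SC07 alone were LAMA3, DCN, COL4A5, SPP1, LUM and LAMA1. LAMA3, a laminin chain of epithelia, measured 3.50, 3.07 and 3.61 CPM in SC07, 0.385, 0.442 and 0.299 in SC01 and 0.354, 0.415 and 0.325 in SC10. SPP1, the secreted protein osteopontin, measured 860.5, 855 and 824 CPM in SC07, 77.7, 83.5 and 84.2 in SC01 and 477, 460.2 and 489 in SC10. LAMA3 was thus low in both sisters, while SPP1 was intermediate in SC10.

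Of 18 integrins, 9 were lowest in SC07 alone and 3 highest, with a median of -0.61. ITGA10, the alpha chain of a collagen receptor, went the other way and measured 108, 116 and 108 CPM in SC07, 28.3, 27.0 and 26.2 in SC01 and 7.41, 8.57 and 7.44 in SC10, with a log2 change of 2.02 ± 0.056 against SC01 and 3.82 ± 0.065 against SC10. ITGB1, the beta chain that ITGA10 and most other alpha chains pair with, measured 149, 154 and 144 CPM in SC07, 204, 211 and 205 in SC01 and 229, 236 and 222 in SC10, and was lowest in SC07, with a log2 change of -0.47 ± 0.043 against SC01 and -0.62 ± 0.043 against SC10. ITGA7, a laminin-binding chain, was highest at 241 ± 7.1 CPM in SC07, 16.4 ± 1.3 in SC01 and 174 ± 1.8 in SC10. ITGA4, ITGA1, ITGA2 and ITGB8 were lowest, at 0.0917, 1.92, 13.9 and 15.9 CPM in SC07 against 0.768, 3.26, 20.8 and 25.9 in SC10. ITGB3 was lowest too, but 51.6% of its exon sequence is shared with another gene.

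Many proteases of the matrix were lowest as well. Of 34 matrix proteases, inhibitors and crosslinkers, 12 were lowest (35.3%) and only SERPINF1 was highest (2.94%), against 10.1% and 10.2% of all genes tested. Their median log2 change was -0.46 against the mean of the sisters, -0.655 against SC01 and -0.252 against SC10. PLAT, the tissue plasminogen activator, measured 106, 101 and 110.0 CPM in SC07, 277, 279 and 279 in SC01 and 189, 193 and 192 in SC10, with a log2 change of -1.40 ± 0.043 against SC01 and -0.86 ± 0.043 against SC10. LOXL3, a crosslinking oxidase (19.3% of its exon sequence is shared with another gene), stood at 1.70 ± 0.38 CPM in SC07, 148 ± 4.6 in SC01 and 3.82 ± 0.66 in SC10. MMP1, a collagenase, stood at 0.0773 ± 0.037 CPM in SC07, 7.24 ± 1.4 in SC01 and 0.520 ± 0.067 in SC10. Over the SC07 libraries, MMP1, TNC, ITGA4 and CADM3 rest on 8, 13, 10 and 13 counts. Of 30 adhesion molecules of the immunoglobulin type, 10 were lowest and 3 highest. Next to NRCAM, the junction molecule JAM3 was lowest at 12.9 ± 1.2 CPM in SC07, 58.9 ± 1.1 in SC01 and 36.4 ± 2.7 in SC10. CADM3, a synaptic adhesion molecule that shares 36.8% of its exon sequence with another gene, was lowest at 0.120 ± 0.060 CPM in SC07, 84.6 ± 2.5 in SC01 and 2.52 ± 0.070 in SC10. CEACAM1, an adhesion molecule of many epithelia, was highest at 143 ± 3.1 CPM in SC07, 89.4 ± 0.94 in SC01 and 91.2 ± 6.6 in SC10. Cadherins, protocadherins and catenins split evenly, with 7 highest and 7 lowest of 25 (28.0% each). CTNNA1, which ties cadherins to actin, was lowest at 180.3, 173 and 174 CPM in SC07, 603, 624 and 617 in SC01 and 363, 357 and 359.8 in SC10. CDH7, a cadherin of the neural crest, was highest at 10.6 ± 0.43 CPM in SC07, 0.0688 ± 0.046 in SC01 and 3.61 ± 0.60 in SC10. VIM, the intermediate filament vimentin, belongs to none of these lists and was lowest in SC07, at 202 ± 5.1 CPM in SC07, 546 ± 6.9 in SC01 and 555 ± 38 in SC10, though 24.4% of its exon sequence is shared with another gene.

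**Figure D3:**
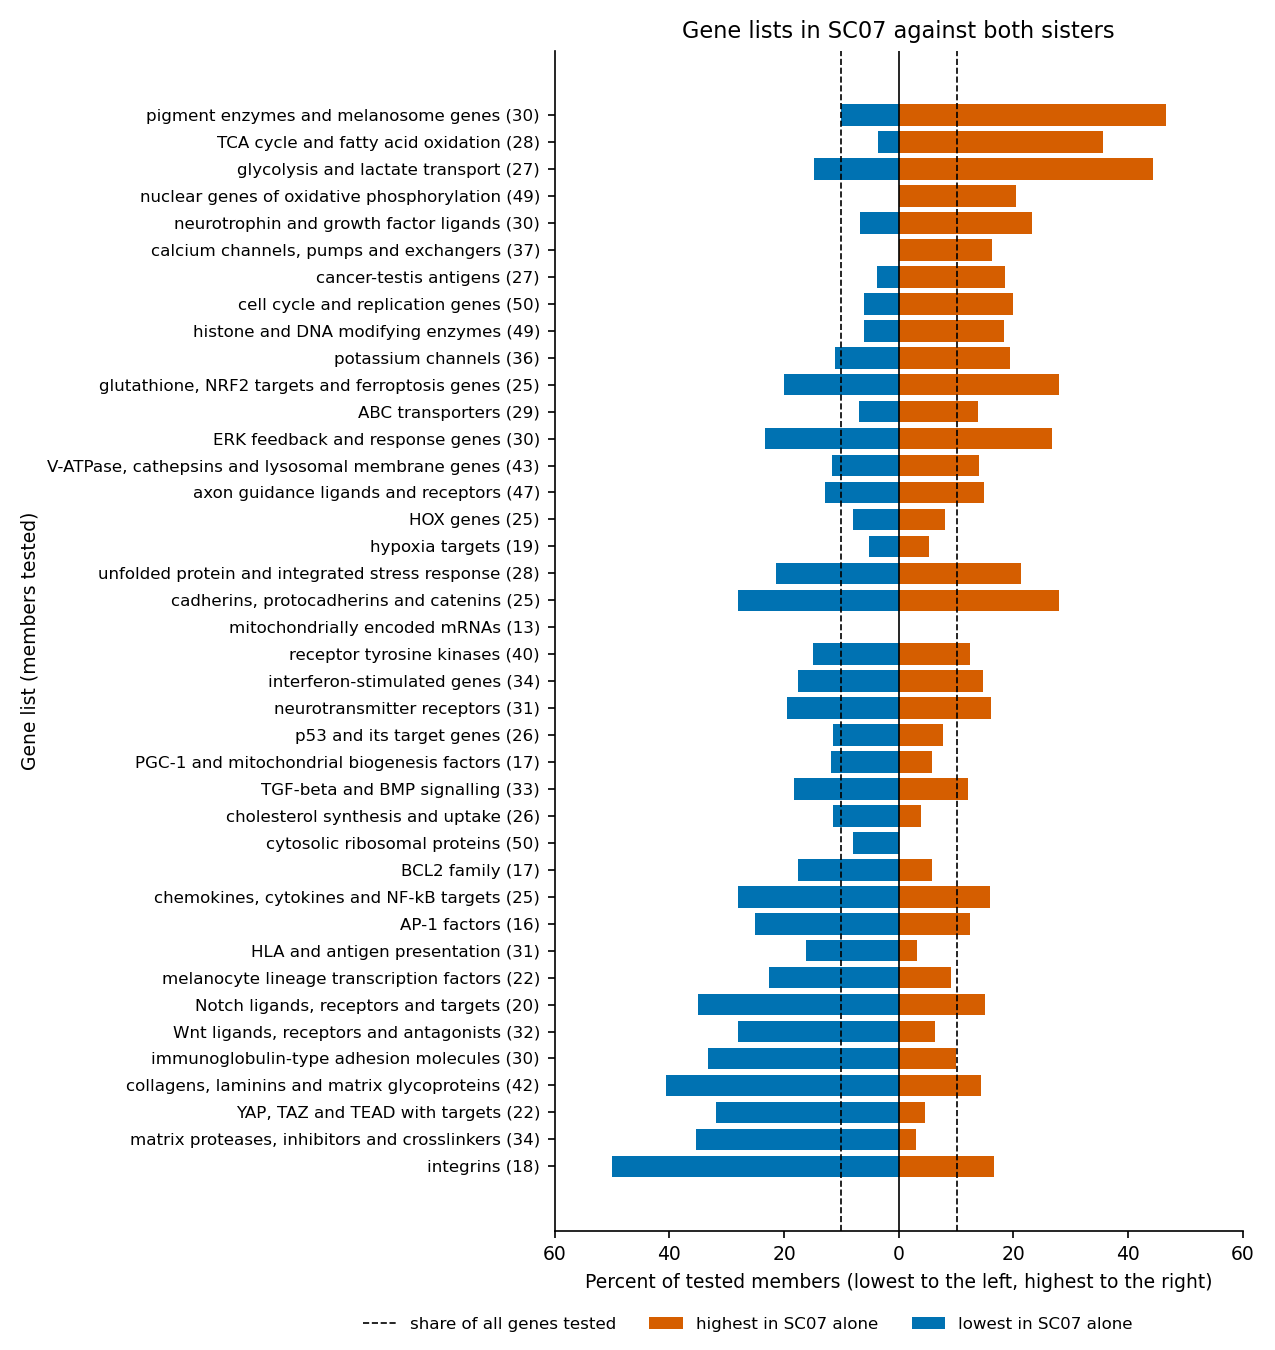
Each row is a gene list with its number of tested members in brackets, and bars give the percent of those members that were highest (orange, to the right) or lowest (blue, to the left) in SC07 alone. The dashed lines mark the shares among all genes tested, 10.2% and 10.1%, and the lists are ordered from pigment genes, with 14 of 30 highest, to integrins, with 9 of 18 lowest.

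Many genes of glycolysis were highest in SC07. Of 27 genes of glycolysis and lactate transport, 12 were highest in SC07 alone (44.4%) and 4 lowest (14.8%), against 10.2% and 10.1% of all genes tested. Their median log2 change was 0.23 against the mean of the sisters, 0.331 against SC01 and 0.134 against SC10. SLC2A3, a glucose transporter, measured 109, 103 and 104 CPM in SC07, 62.0, 61.03 and 58.8 in SC01 and 54.96, 54.5 and 52.2 in SC10. SLC16A1, a lactate transporter, measured 128, 126 and 117 CPM in SC07, 71.6, 67.8 and 72.4 in SC01 and 72.8, 75.1 and 71.9 in SC10. For both genes the sisters lay within 20 CPM of each other, and SC07 was higher by 0.80 ± 0.047 against SC01 and 0.97 ± 0.047 against SC10 for SLC2A3 on the log2 scale. For SLC16A1 it was higher by 0.81 ± 0.048 against SC01 and 0.76 ± 0.048 against SC10. GAPDH, the glyceraldehyde phosphate dehydrogenase, stood at 3148 ± 97 CPM in SC07, 2178 ± 26 in SC01 and 2268 ± 78 in SC10, with 14.2% of its exon sequence shared with another gene, and it is known for many pseudogene copies, so that its level is uncertain. PFKFB2, an isoform of the enzyme that sets fructose bisphosphate, was highest at 161 CPM, while the isoforms PFKFB3 and PFKFB4 were lowest, PFKFB3 at 44.6 ± 1.8 CPM in SC07, 67.5 ± 1.0 in SC01 and 64.3 ± 2.9 in SC10. HK2, a hexokinase, and LDHA, a lactate dehydrogenase, were lowest as well, with log2 changes against SC10 of -0.50 and -0.18.

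In the tricarboxylic acid cycle and fatty acid oxidation, 10 of 28 genes were highest (35.7%, against 10.2% of all genes tested). The only lowest member was IDH2, a call lost in some fits with 1 library left out. The median was 0.43 against the mean of the sisters, but 0.80 against SC01 and 0.08 against SC10. CS, the citrate synthase, stood at 629 ± 19 CPM in SC07, 396 ± 4.3 in SC01 and 491 ± 4.9 in SC10. ACADS, a short-chain dehydrogenase of fatty acids, stood at 35.9 ± 1.7 CPM in SC07, 16.4 ± 0.32 in SC01 and 24.5 ± 1.2 in SC10. CPT2, which carries fatty acids into mitochondria, stood at 26.3 ± 1.1 CPM in SC07, 13.1 ± 0.39 in SC01 and 19.4 ± 0.67 in SC10. In all 3 genes SC10 lay between SC01 and SC07. Among 49 nuclear oxidative phosphorylation genes, 43 were higher than the mean of the sisters, yet only 10 were highest in SC07 alone (20.4%) and 0 were lowest, and their median change was 0.69 against SC01 and 0.07 against SC10. Without SC10 replicate 3, 25 of the 49 were highest in SC07 alone. COX6A1, a subunit of cytochrome oxidase, measured 254, 244 and 263 CPM in SC07, 103, 109.5 and 113 in SC01 and 173, 157 and 182 in SC10. ATP5F1B, the beta subunit of ATP synthase, measured 3018, 2932 and 3093 CPM in SC07, 1390.2, 1438 and 1473 in SC01 and 2188, 2079.5 and 2289.5 in SC10. The clones did not overlap for either gene. None of the 13 mitochondrially encoded mRNAs was highest or lowest in SC07 alone, with a median of 0.58 against SC01 and -0.16 against SC10. PPARGC1A, the coactivator of mitochondrial genes, measured 473, 469.9 and 461 CPM in SC07, 30.4, 31.0 and 29.1 in SC01 and 451, 456 and 393 in SC10. It was higher in SC07 than in SC01 by 3.96 ± 0.057 on the log2 scale and did not differ from SC10 past the threshold (edgeR's adjusted p = 0.057).

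Of 25 genes of glutathione, NRF2 targets and ferroptosis, 7 were highest and 5 lowest, and without SC07 replicate 1, or scaled by library totals, 4 were highest. SLC3A2, the partner chain of SLC7A11 in the cystine transporter, was highest at 284, 278 and 298 CPM in SC07, 166, 167 and 174 in SC01 and 187, 179 and 194 in SC10, by 0.76 ± 0.044 against SC01 and 0.62 ± 0.044 against SC10. HMOX1, the heme oxygenase, was lowest at 18.1 ± 1.3 CPM in SC07, 30.4 ± 1.9 in SC01 and 35.8 ± 0.68 in SC10. GSTM3, a glutathione transferase, was lowest at 17.8 ± 0.31 CPM in SC07, 39.0 ± 1.2 in SC01 and 31.5 ± 2.3 in SC10. Of 28 stress response genes (unfolded proteins and the integrated response), 6 were highest and 6 lowest (21.4% each). TNFRSF10B, a death receptor and p53 target, was highest at 177 ± 7.2 CPM in SC07, 78.5 ± 0.62 in SC01 and 95.8 ± 3.7 in SC10. Of 26 p53 genes 2 were highest (7.69%) and 3 lowest (11.5%), near the shares of all genes tested. Among the lowest was TP53INP1 at 10.5 ± 0.49 CPM in SC07, 20.1 ± 1.1 in SC01 and 17.2 ± 1.7 in SC10.

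Ligands of growth factor receptors were highest in SC07 in 7 of 30 tested genes (23.3%) and lowest in 2 (6.67%), against 10.2% and 10.1% of all genes tested. Over all lists, 196 of 1219 tested genes were highest and 190 lowest, so that modest excesses over the shares of all genes are common among lists. Next to PDGFC, TGFA, a ligand of the epidermal growth factor receptor, stood at 4.81 ± 0.25 CPM in SC07, 1.26 ± 0.31 in SC01 and 1.82 ± 0.37 in SC10. KITLG, the ligand of the receptor KIT, stood at 17.99 ± 0.46 CPM in SC07, 3.66 ± 0.51 in SC01 and 13.98 ± 0.67 in SC10. GDNF, a ligand of neural cells, was lowest at 1.58 ± 0.27 CPM in SC07, 13.3 ± 0.84 in SC01 and 5.599 ± 0.96 in SC10. PGF, a ligand of vascular receptors, was lowest at 25.6 ± 0.38 CPM in SC07, 50.2 ± 2.3 in SC01 and 48.7 ± 0.029 in SC10. Of 40 receptor tyrosine kinases, 5 were highest and 6 lowest. FGFR1, a fibroblast growth factor receptor, measured 25.4, 28.997 and 26.7 CPM in SC07, 65.6, 71.5 and 71.9 in SC01 and 68.7, 67.9 and 64.1 in SC10. The 6 sister libraries lay between 64.1 and 71.9 CPM, and SC07 was lower by 1.36 ± 0.057 against SC01 and 1.31 ± 0.057 against SC10 on the log2 scale, while the related FGFR2 was highest at 10.3 ± 0.49 CPM in SC07, 6.22 ± 0.82 in SC01 and 5.61 ± 0.20 in SC10. EPHA4 and EPHB6, receptors of ephrins, were highest at 44.8 and 7.95 CPM against 26.8 and 4.07 in SC10.

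Genes that respond to ERK signalling, the path downstream of BRAF, moved both ways, with 8 of 30 highest (26.7%) and 7 lowest (23.3%). Among all genes tested, 10.2% were highest and 10.1% lowest. The feedback phosphatase DUSP6 (40.5% of its exon sequence is shared with another gene) and the feedback inhibitor SPRY2 were higher by 0.47 ± 0.051 and 0.26 ± 0.042 against SC10, and PHLDA1 (16.5% overlap) was highest at 576 ± 12 CPM in SC07, 380.1 ± 6.1 in SC01 and 345 ± 1.8 in SC10. IER3, an immediate early gene (26.5% of its exon sequence is shared with another gene), was lowest at 33.2 ± 0.93 CPM in SC07, 68.8 ± 2.5 in SC01 and 76.5 ± 2.7 in SC10. DUSP8, another phosphatase of MAP kinases, was lowest at 5.16 ± 0.30 CPM in SC07, 17.7 ± 0.51 in SC01 and 11.2 ± 0.15 in SC10. CCND1, the cyclin of cell cycle entry, was lowest at 141 ± 2.2 CPM in SC07, 326 ± 8.4 in SC01 and 208 ± 6.0 in SC10. Of 16 AP-1 factors, 4 were lowest, among them FOSL1 at 16.7 ± 0.74 CPM in SC07, 50.5 ± 3.3 in SC01 and 23.9 ± 0.55 in SC10, and 2 were highest.

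Members of the YAP and TEAD group, which couples cell contact and tension to transcription, were lowest in 7 of 22 (31.8%) and highest in 1 (4.55%). Their median log2 change was -0.36 against the mean of the sisters, -0.562 against SC01 and -0.169 against SC10. Among all genes tested, 10.1% were lowest and 10.2% highest. Next to NT5E, FOXF2, a forkhead factor, stood at 2.28 ± 0.42 CPM in SC07, 20.7 ± 0.34 in SC01 and 6.46 ± 0.27 in SC10. FJX1, a secreted protein, stood at 10.9 ± 0.43 CPM in SC07, 30.3 ± 0.35 in SC01 and 22.99 ± 0.50 in SC10, and YAP1 itself changed by -0.29 ± 0.049 against SC01 and -0.47 ± 0.049 against SC10 on the log2 scale. Of 33 genes of TGF-beta and BMP signalling, 6 were lowest (18.2%) and 4 highest (12.1%). TGFBR1, the type I receptor, measured 70.1, 68.6 and 69.4 CPM in SC07, 154, 150.1 and 153 in SC01 and 152, 151 and 145 in SC10, and its log2 change was -1.14 ± 0.043 against SC01 and -1.11 ± 0.043 against SC10, with the 6 sister libraries between 145 and 154 CPM. BMP7, a ligand, was lowest at 1.06 ± 0.31 CPM in SC07, 5.15 ± 0.60 in SC01 and 9.90 ± 0.27 in SC10. SMAD7, an inhibitor, was lowest at 4.83 ± 0.72 CPM in SC07, 12.3 ± 0.23 in SC01 and 10.6 ± 1.2 in SC10. GDF11, a ligand, was highest at 134 ± 1.5 CPM in SC07, 72.5 ± 3.6 in SC01 and 82.5 ± 1.2 in SC10. Of 32 Wnt genes, 9 were lowest (28.1%) and 2 highest (6.25%), with the antagonist SFRP1 lowest at 3.54 ± 0.24 CPM in SC07, 43.1 ± 0.74 in SC01 and 15.1 ± 0.55 in SC10. Of 20 Notch genes, 7 were lowest and 3 highest, with the coactivator MAML2 lowest at 4.64 ± 0.16 CPM in SC07, 18.4 ± 1.1 in SC01 and 17.6 ± 4.2 in SC10. HEY1, a target, was highest at 31.2 ± 1.7 CPM in SC07, 18.5 ± 1.7 in SC01 and 11.02 ± 0.62 in SC10.

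Of 25 chemokines, cytokines and NF-kB targets, 7 were lowest in SC07 alone (28.0%) and 4 highest (16.0%), against 10.1% and 10.2% of all genes tested. The neighbouring chemokine genes CXCL8 and CXCL1 on chromosome 4 were lowest, CXCL8 at 0.213, 0.180 and 0.0299 CPM in SC07, 8.51, 7.11 and 6.50 in SC01 and 1.23, 1.13 and 0.916 in SC10. CXCL1 measured 1.07, 1.01 and 1.254 CPM in SC07, 59.0, 55.8 and 58.3 in SC01 and 7.19, 6.50 and 7.12 in SC10. SC01 was high, SC10 low and SC07 lower still (CXCL8 had 15 counts over its libraries), with log2 changes against SC10 of -2.91 ± 0.35 and -2.65 ± 0.12. CX3CL1 went the other way. Of 34 interferon-stimulated genes, 5 were highest (14.7%) and 6 lowest (17.6%), with IFI16, a sensor of DNA, lowest at 115 ± 8.4 CPM in SC07, 466 ± 7.9 in SC01 and 325 ± 7.3 in SC10. OAS3, an antiviral synthetase, was highest at 103 ± 3.7 CPM in SC07, 65.9 ± 0.52 in SC01 and 65.4 ± 9.1 in SC10. Of 31 genes of antigen presentation, 5 were lowest (16.1%) and 1 was highest (3.23%). HLA-E and the trimming peptidases ERAP1 and ERAP2 were lowest, at 176, 30.6 and 3.36 CPM in SC07 against 247, 49.4 and 5.21 in SC10.

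Lists of neural receptors and channels differed in their counts, set against 10.2% highest and 10.1% lowest among all genes tested. Of 31 neurotransmitter receptors, 5 were highest (16.1%), GLRB among them (3 without SC01 replicate 3, SC07 replicate 1 or SC07 replicate 3), and 6 lowest (19.4%), including GABRA5 and its neighbour GABRG3 on chromosome 15. GABRG3 measured 0.609, 0.696 and 0.418 CPM in SC07, 2.36, 3.10 and 3.26 in SC01 and 8.34, 7.39 and 8.18 in SC10, lowest in SC07 and highest in SC10. CHRNA6, a nicotinic receptor subunit, was lowest at 0.175 ± 0.11 CPM in SC07, 8.85 ± 0.056 in SC01 and 1.49 ± 0.16 in SC10, from 19 counts in SC07. Of 36 potassium channels, 7 were highest (19.4%) and 4 lowest (11.1%). KCNJ3, an inward rectifier, had 60 counts in SC07, 1 in SC01 and 0 in SC10, a count ratio over SC01 of 57.9 (95% counting interval 10 to 2325) and at least 19.8-fold over SC10. Of 37 calcium channels, pumps and exchangers, 6 were highest (16.2%) and 0 lowest, with ITPR2, a calcium release channel, at 71.5 ± 1.4 CPM in SC07, 31.2 ± 1.4 in SC01 and 36.9 ± 5.5 in SC10. ATP2B1, a calcium pump of the plasma membrane, stood at 56.4 ± 1.8 CPM in SC07, 44.8 ± 2.5 in SC01 and 41.5 ± 1.8 in SC10. Axon guidance genes split into 7 highest (14.9%) and 6 lowest (12.8%) of 47, near the shares of all genes tested. Among them were SLIT2 and the netrin receptor DCC, which was highest at 3.69 ± 0.85 CPM in SC07, 0.539 ± 0.14 in SC01 and 0.328 ± 0.25 in SC10. SEMA4C, a semaphorin, was lowest at 12.7 ± 0.32 CPM in SC07, 30.2 ± 0.32 in SC01 and 52.6 ± 0.42 in SC10.

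Of 50 genes of the cell cycle and replication, 10 were highest and 3 lowest, but 5 were highest without SC07 replicate 1 or without SC10 replicate 1, and 5 were lowest without SC10 replicate 3. CDK2, a cyclin-dependent kinase with 16.8% of its exon sequence shared with another gene, was highest at 926 ± 18 CPM in SC07, 746 ± 7.7 in SC01 and 629.9 ± 14 in SC10. It lies within the span of the far more abundant PMEL, which was highest as well. With the strand setting unknown, reads from PMEL may be among the counts of CDK2. Of 49 histone and DNA modifying enzymes, 9 were highest (18.4%) and 3 lowest (6.12%, or 5 genes without SC07 replicate 3 and 7 without SC10 replicate 3), with DNMT3A, a DNA methyltransferase, at 54.8 ± 1.9 CPM in SC07, 30.4 ± 0.99 in SC01 and 38.6 ± 2.5 in SC10. TET2, which oxidises methylated DNA, stood at 19.8 ± 1.1 CPM in SC07, 13.2 ± 1.1 in SC01 and 12.5 ± 2.3 in SC10. Of 50 cytosolic ribosomal proteins, 4 were lowest (8.0%, or 7 genes without SC10 replicate 2) and 0 highest. Of 27 cancer-testis antigens, 5 were highest (18.5%), 3 of them GAGE genes, and 1 was lowest (3.7%). H1F0, a linker histone, was lowest at 9.37 ± 1.4 CPM in SC07, 57.6 ± 1.1 in SC01 and 139 ± 8.3 in SC10. Counts in the remaining lists are set against 10.2% highest and 10.1% lowest among all genes tested, with 1 highest and 3 lowest of 26 cholesterol genes, 2 and 2 of 25 HOX genes, 1 and 3 of 17 BCL2 family genes, 1 and 1 of 19 hypoxia targets, 1 and 2 of 17 factors of mitochondrial biogenesis, 6 and 5 of 43 lysosomal genes, and 4 and 2 of 29 ABC transporters. ABCB5, an ABC transporter that marks a subset of melanoma cells, was lowest at 9.35 ± 0.51 CPM in SC07, 19.2 ± 0.21 in SC01 and 21.4 ± 1.2 in SC10.

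Markers of other cell types were counted in the same libraries. Shares among all genes tested were 10.2% highest and 10.1% lowest. Of 12 keratinocyte markers 7 were tested, with 2 highest and 1 lowest in SC07, and their summed level ran from 86.4 to 87.9 CPM in SC07, 117.5 to 118.9 in SC01 and 99.0 to 111.0 in SC10. PERP, a membrane protein of cell junctions, gave 61.9 CPM of the SC07 sum and was lowest, while KRT14 and KRT15, neighbouring keratin genes on chromosome 17, were both highest. KRT14 stood at 1.23 ± 0.43 CPM in SC07, 0.220 ± 0.15 in SC01 and 0.0197 ± 0.017 in SC10. KRT15 stood at 1.93 ± 0.30 CPM in SC07, 0.825 ± 0.089 in SC01 and 0.105 ± 0.093 in SC10. KRT5, the partner of KRT14 in filaments, had 8 counts over the SC07 libraries and 0 in each sister, and KRT1 had 0 in all clones. Of 12 fibroblast markers 8 were tested, with 2 highest and 2 lowest, and the sum ran from 443.6 to 504.7 CPM in SC07, 168.5 to 175.6 in SC01 and 368.2 to 404.8 in SC10. LUM, a proteoglycan that is also on the matrix list, gave 462 CPM of it in SC07, while the defining collagen genes COL1A2 and COL3A1 had 1 count each in SC07. COL1A1, another defining collagen, had 126 counts in SC07, 210 in SC01 and 120 in SC10.

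Of 12 immune markers 3 were tested, and their sum ran from 3.82 to 5.08 CPM in SC07, 1.62 to 1.83 in SC01 and 1.84 to 2.07 in SC10. PTPRC, the leukocyte phosphatase CD45, was highest at 3.12 ± 0.50 CPM in SC07, 0.173 ± 0.15 in SC01 and 0.735 ± 0.14 in SC10, while the T cell markers CD3E and CD3D had 1 and 0 counts in SC07 and MS4A1, of B cells, had 5. The myeloid markers ITGAM and CSF1R had 86 and 35 counts in SC07, 107 and 48 in SC01 and 69 and 54 in SC10. Of 10 endothelial markers 3 were tested, with a sum of 14.3 to 15.7 CPM in SC07, 23.4 to 24.4 in SC01 and 8.55 to 9.01 in SC10. VWF, the von Willebrand factor, was highest in SC07 at 9.37 ± 1.0 CPM in SC07, 2.82 ± 0.059 in SC01 and 4.91 ± 0.24 in SC10. KDR, a receptor of vascular growth factors, had 571 counts in SC07, 2108 in SC01 and 371 in SC10. CLDN5, ERG, TIE1 and PECAM1 had 38, 26, 22 and 19 counts in SC07, while CDH5 had 1 count and EMCN 0. Of 9 tested histone genes of the replication-dependent kind, whose mRNAs mostly lack a poly(A) tail, 5 were highest in SC07 (3 without SC01 replicate 3) and 0 lowest. The 5 are 55.6% of the 9, against 10.2% of all genes tested. The part of these markers and histone genes in the other results was not tested.

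The genes that set SC07 apart were unevenly spread over the chromosomes. Lowest genes made up 29% of those tested on chromosome 22, 27.7% on chromosome 5, 21.2% on chromosome 11 and 17.4% on chromosome 10, against 10.1% overall. Highest genes made up 20.4% on chromosome 4, 20.2% on chromosome 13, 19.9% on chromosome 17 and 18.8% on chromosome 12, against 10.2% overall. These chromosomes were picked by their shares of all highest or lowest genes, most of which changed by under 1.5-fold. The split by size of change that follows is therefore partly set by that choice. Chromosomes 22, 5, 11 and 10 hold 16.3% of the genes tested, 45.5% of the lowest genes with a change under 1.5-fold against the nearer sister, and 24.0% of those at 2-fold or more. Chromosomes 4, 13, 17 and 12 hold 16.8% of the genes tested, 33.6% of the highest genes under 1.5-fold and 30.7% of those at 2-fold or more. DNA copy number was not analysed here.

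**Figure D4:**
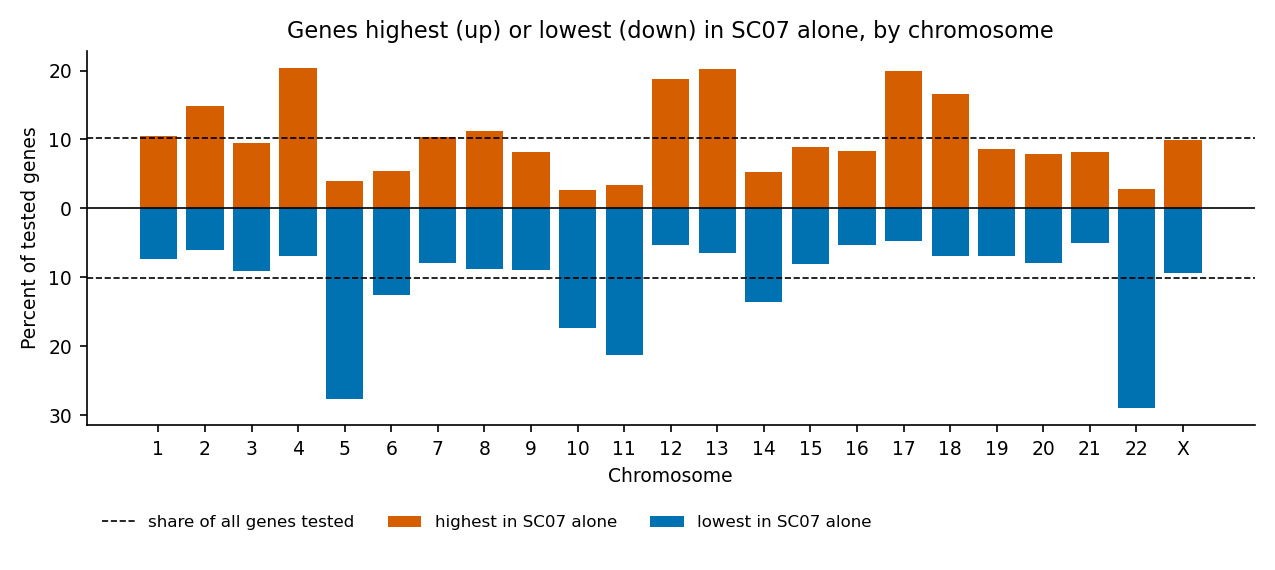
Bars give, for each chromosome, the percent of tested genes that were highest (upward, orange) or lowest (downward, blue) in SC07 alone, with dashed lines at the shares of all genes tested. Chromosomes 5 and 22 have the longest downward bars (27.7% and 29%) and chromosomes 4, 13 and 17 the longest upward ones (20.4%, 20.2% and 19.9%).

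Some of this held against both sisters and some against a single one. In windows of 10 Mb with at least 20 tested genes (276 windows), 19 had a median log2 change of -0.2 or lower against each sister, and 4 had 0.2 or higher against each. Of the 19, 9 lay on chromosome 5, 5 on chromosome 22, 2 on chromosome 14, 2 on chromosome 10 and 1 on X. On chromosome 5 from 50 to 150 Mb, 183 of 465 genes (39.4%) were lowest in SC07 alone, with median changes of -0.39 against SC01 and -0.34 against SC10. The median deviation from the mean of the sisters was -0.365, -0.325 and -0.385 in the SC07 libraries, 0.0567, 0.0218 and 0.0164 in SC01 and -0.0123, -0.00517 and -0.0206 in SC10. All 3 SC07 libraries were low by a like amount. The stretch holds ENC1, CTNNA1, ERAP1, ERAP2, RPS23, P4HA2, CDC25C and the matrix gene TGFBI, all among the named genes lowest in SC07. This list is not complete. The part of the stretch in the losses of matrix and adhesion genes was not tested. On the rest of chromosome 5 the medians were 0.06 and -0.23 before 50 Mb and -0.04 and 0.05 after 150 Mb, against SC01 and SC10 in this order.

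Chromosome 22 was low in each of its 5 windows with at least 20 tested genes, with 137 of 473 genes lowest (29%) and medians of -0.33 against SC01 and -0.23 against SC10. Its SC07 libraries deviated by -0.272, -0.28 and -0.255, and those of the sisters by -0.0569 to 0.0603. BAIAP2L2, FBLN1, CELSR1, HMOX1 and BCL2L13 lie there, and so does HPS4, a melanosome gene that was highest in SC07 against this trend, at 764 ± 13 CPM in SC07, 340.4 ± 7.9 in SC01 and 538 ± 14 in SC10. Chromosome 14 beyond 90 Mb had 47 of 147 genes lowest (32.0%), with medians of -0.35 and -0.27, while the rest of chromosome 14 had -0.07 and 0.03. The opposite was seen on chromosome 8 between 20 and 30 Mb, where 30 of 65 genes (46.2%) were highest, TNFRSF10B among them, with medians of 0.44 and 0.47 and SC07 libraries at 0.386, 0.407 and 0.429. Chromosomes 10 and 11 were low against SC10 (-0.31 and -0.28) and near 0 against SC01 (-0.04 and -0.01). Chromosome 12 was high against SC10 (0.34) and near 0 against SC01 (-0.03), and chromosome 4 was high against SC01 (0.38) and near 0 against SC10 (0.06). Other windows high against both SC01 and SC10 were chromosome 4 from 30 to 40 Mb (0.464 and 0.206) and chromosome 12 from 20 to 30 Mb (0.23 and 0.471). So was chromosome 13 from 90 to 100 Mb (0.401 and 0.215), which holds DCT. PMEL, CDK2, LUM, DCN, VWF and TBX3, all highest in SC07 alone, lie on chromosome 12. The part of position in their levels was not tested.

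**Figure D5:**
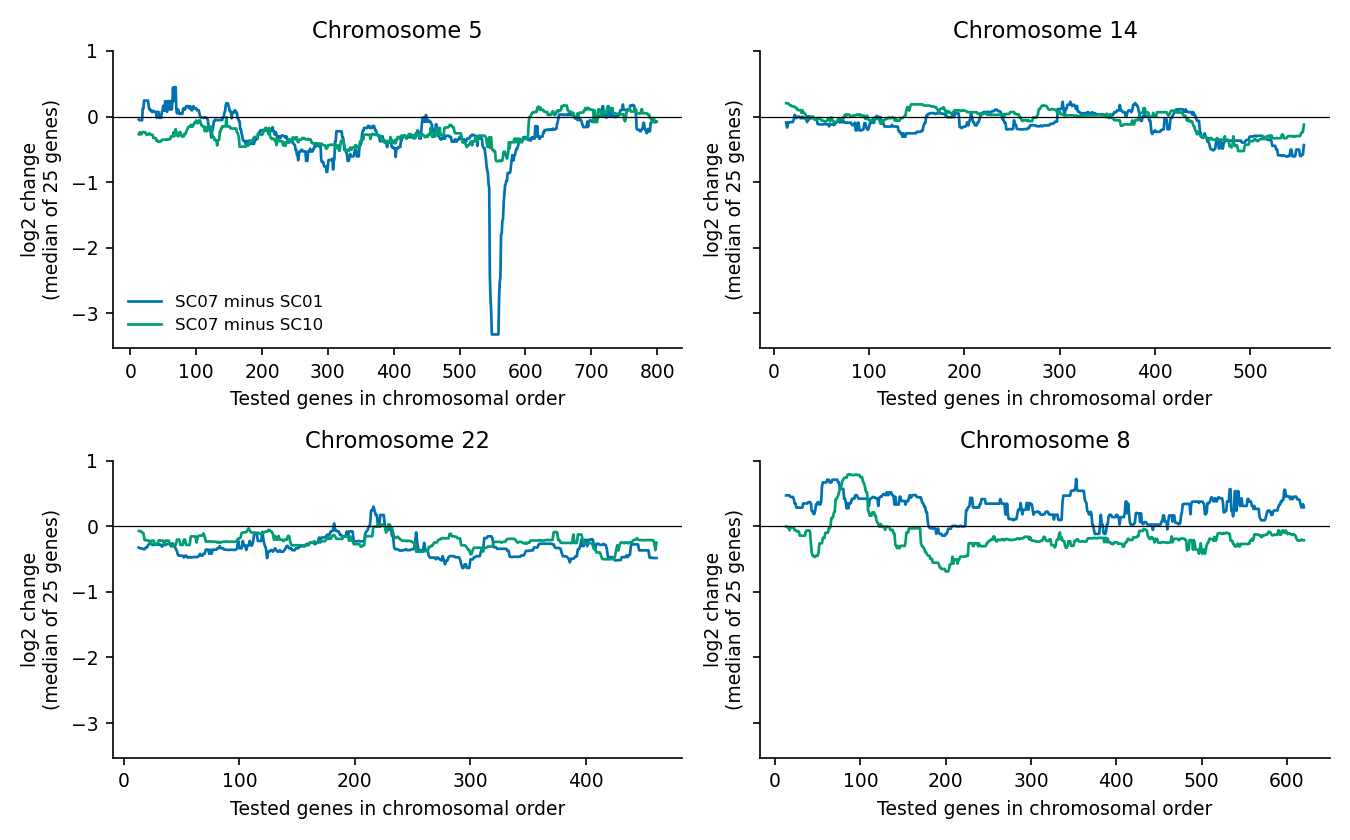
Lines give the running median, over 25 tested genes in chromosomal order, of the log2 change of SC07 against SC01 (blue) and against SC10 (green) on chromosomes 5, 14, 22 and 8. Both lines lie below 0 over the middle of chromosome 5, the end of chromosome 14 and most of chromosome 22, and both lie above 0 over a stretch near the start of chromosome 8, while the deep dip of the blue line on chromosome 5 is far shallower in the green line.

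Some of the lowest genes lay next to each other, within these stretches and outside them. Of 394 genes lowest by at least 2-fold on the numbered chromosomes or X, 120 had such a neighbour within 3 tested genes and 2 Mb, in 58 groups. COL4A1 with COL4A2, CXCL8 with CXCL1, GABRA5 with GABRG3, IFI16 with CADM3, LGALS1 with H1F0, and TGFBR1 with COL15A1 were among them. The number of such neighbours to be had by chance or from the shifts of whole stretches was not tested. LGALS1, the lectin galectin, lies with H1F0 on chromosome 22 and stood at 90.5 ± 5.0 CPM in SC07, 192 ± 4.8 in SC01 and 186 ± 13 in SC10. Of 9 genes often followed in melanoma (NRAS, BRAF, KDM5B, MITF, PPARGC1A, EGFR, NOX5, NGFR and AXL), none was highest or lowest in SC07 alone. NOX5, an NADPH oxidase, was higher in SC07 than in SC01 and lower than in SC10, and NRAS did not differ from either sister past the threshold (edgeR's adjusted p = 0.0676 and 0.335).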

How the data were processed

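RNA sequencing was done on 9 libraries, 3 for each clone. The authors deposited 1 matrix of raw counts per gene for 60675 Ensembl genes, made with HISAT2 and featureCounts on GRCh38 per the submitters' processing notes. The sources used here do not give tool versions, the annotation release or the strand setting. Names and positions were taken from GENCODE 29, which matched 57055 of the IDs. Genes were filtered with filterByExpr, scaled by TMM and tested in edgeR 4.0.16 by a robust quasi-likelihood fit over all 9 libraries, with Benjamini-Hochberg adjustment over 18009 genes (R 4.3.3). The scripts were tested on simulated data. Named genes are the 12 with the largest change against the nearer sister in each direction at 5 CPM or more, 3 long non-coding RNAs in each direction and up to 4 called members per list, and 43 more were named after their values were seen. The members and all 47 gene lists were chosen with earlier results of these data known. Genes highest or lowest in SC07 alone were more often protein-coding (92.5% and 86.8%) than all genes tested (75.5%). Their median levels were also higher, at 39.9 and 22.3 CPM against 13.6. Alternatives covered scaling, filters, DESeq2 1.42.0, limma-voom (limma 3.58.1), a minimum change, a replicate block and each library left out. Intervals on counts are exact 95% intervals and cover counting error only. Some genes that the rule names are not reported here.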

Additional observations from a re-analysis of the deposited data

How the results depend on the processing

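Tested against a minimum change of 1.5-fold, 879 genes were higher and 995 lower in SC07 than the mean of the sisters, 1978 and 1725 against SC01, 451 and 993 against SC10, and 214 were highest and 394 lowest in SC07 alone. With a 2-fold limit on the change against the nearer sister these last counts were 205 and 396. Under the other scalings, filters and tools they ran from 1524 to 1862 and from 1706 to 2103. With 1 library left out at a time they ran from 1569 to 1871 and from 1701 to 1953. MITF, near 0 against the mean of the sisters, turned negative with library totals (-0.04608), with a 1 CPM filter (-0.008332) and in some fits with 1 library left out (range -0.01638 to 0.02428). AXL, a receptor kinase of less pigmented melanoma states that was not called, turned positive with limma-voom (0.04215) and ran from -0.2073 to 0.1439 with 1 library left out. Calls of LIF, KCNK6, HIST1H2BC, TFB1M, WNT5B, WNT10A, CACNB4, ABCA13, LAMP3, HOXC6, KDM3A, ATP2A1, SLC45A2 and IDH2 were lost without 1 or more single libraries.

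Replicate numbers are shared between the clones, but libraries with the same number did not deviate together (correlations from -0.0195 to 0.0429, 5 of 9 libraries nearest to their own number), so the numbers were not taken as pairs. With the replicate block, 1859 genes were highest and 1820 lowest in SC07 alone, of which 1826 and 1807 were also called without it. Depth limits genes with few counts, whose standard errors are too small.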
